A study of Homo sapiens with 54 samples.

Results

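The DNA replication machinery and the enzymes of deoxynucleotide synthesis were followed here as a group of 41 genes, named by function in 10 roles: origin licensing, the MCM helicase, helicase activation, the CDC7-DBF4 kinase, polymerase alpha-primase, polymerases delta and epsilon, the sliding clamp and its loader, flap processing and ligation, single-strand binding, and nucleotide synthesis. Each was represented by the transcript cluster annotated with that symbol alone and with the highest mean level. All 41 of 41 were found, each with a single such cluster, among 18417 genes in the table. The cells were NCI-H460, an established human lung large cell carcinoma line, grown without serum for the experiment. Every group held 3 cultures, called biological replicates in the labels, with 1 array each. At each of 2 harvest times, 2 h and 24 h after the therapy step, there were 9 groups. They were untreated cells, nicotine at 5 uM, cigarette smoke extract at 5 uM nicotine equivalent, 6 Gy of ionizing radiation, 1 uM cisplatin, radiation after nicotine, radiation after smoke extract, cisplatin after nicotine, and cisplatin after smoke extract. Nicotine or smoke extract went into the medium 2 h before the therapy. All results are for a single cell line.

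Replication starts at origins, where the origin recognition complex, CDC6 and CDT1 load the ring of MCM2 to MCM7 onto DNA in G1. In S phase the CDC7-DBF4 kinase, MCM10, CDC45 and the GINS complex turn that ring into an active helicase, polymerase alpha-primase lays down primers, and polymerases delta and epsilon extend them while held by the PCNA clamp. Ribonucleotide reductase, thymidylate synthase and thymidine kinase supply the deoxynucleotides. Most of these genes are transcribed around the G1/S transition under E2F transcription factors, and irradiated cells are known to arrest in G1, S or G2 through checkpoint kinases and the inhibitor CDKN1A.

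The values were on a log2 scale, as inferred from their range, and levels below are log2 values unless stated otherwise. Levels of different genes come from different probes, so comparisons of level between genes, as in this paragraph, are only approximate. Of the 41 genes, 39 had a mean level above that of the median gene, 7.04. DBF4 was the lowest at 4.82, the 11.6th percentile of all genes. Of 6 epithelial markers, the keratins KRT8, KRT18 and KRT19 were high, with median group means of 11.96, 11.3 and 11.56. KRT7 lay between 6.85 and 7.37, and the adhesion genes EPCAM and CDH1 were low, with array values of 5.02 to 5.66 and 4.78 to 5.39. The 5 leukocyte markers ranged from PTPRC at 3.02 to 3.79 up to CD68 at 9.16 to 9.60, and the 7 fibroblast and endothelial markers from DCN at 2.82 to 3.50 up to COL1A1 at 7.29 to 7.90. The mean over 360 clusters of olfactory receptors, a family used here as a gauge of background, ranged from 4.39 to 4.89. The mean level of DBF4 lies inside that range, so DBF4 was not shown to be above background and no size is given for its differences. On 6 arrays the olfactory receptor mean lay more than 0.15 from its group mean, including radiation plus smoke extract at 24 h replicates 2 (0.194 above) and 3 (0.219 below).

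The promoters of the genes that led the results are shown first, because the E2F site is the sequence feature most often tied to this gene class. The RefSeq promoter table (GRCh38.p14) held 35 of the 41 genes. The window of each was 250 bases before and 50 bases after its first-listed start. Any other starts of a gene were left out, here and for all promoters. The search covered 8 octamers on either strand, TTTCCCGC, TTTCCCGG, TTTCGCGC, TTTCGCGG, TTTGCCGC, TTTGCCGG, TTTGGCGC and TTTGGCGG, and the pentamer CCAAT, also on either strand. At least 1 octamer was present in 19 of the 35 windows (54.3%), against 6.2% of 27305 promoters of the same length, and CCAAT in 18 (51.4%), against 35.7%. Octamers on opposite strands can overlap and were then counted separately. The sequences below are the 250 bases before the start, 5′ to 3′ on the gene's strand, with octamers and CCAAT (or its reverse complement ATTGG) in capitals. RRM2, GINS2, GINS1 and GMNN had the largest decreases with radiation alone at 24 h. CDC6, which had the largest difference in the smoke extract effect between irradiated and unirradiated cells, and MCM6, with the most octamers, were chosen after their values were seen.
RRM2, chr2:10122489-10122738, plus strand: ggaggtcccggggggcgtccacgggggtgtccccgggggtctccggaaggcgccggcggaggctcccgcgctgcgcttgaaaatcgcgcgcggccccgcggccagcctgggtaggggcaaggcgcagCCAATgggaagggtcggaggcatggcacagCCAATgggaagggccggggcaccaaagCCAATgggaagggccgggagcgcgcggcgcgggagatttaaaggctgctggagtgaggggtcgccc
GINS2, chr16:85688955-85689204, minus strand: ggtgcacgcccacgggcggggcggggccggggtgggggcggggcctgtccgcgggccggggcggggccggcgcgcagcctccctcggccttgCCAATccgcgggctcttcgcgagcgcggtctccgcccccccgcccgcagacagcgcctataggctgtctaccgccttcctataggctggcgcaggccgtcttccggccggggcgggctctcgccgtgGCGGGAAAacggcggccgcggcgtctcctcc
GINS1, chr20:25407423-25407672, plus strand: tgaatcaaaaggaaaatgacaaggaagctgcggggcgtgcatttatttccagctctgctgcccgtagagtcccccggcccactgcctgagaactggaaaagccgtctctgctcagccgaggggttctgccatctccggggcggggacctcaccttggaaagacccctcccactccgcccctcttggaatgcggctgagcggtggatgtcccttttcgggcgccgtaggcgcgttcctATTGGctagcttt
GMNN, chr6:24774687-24774936, plus strand: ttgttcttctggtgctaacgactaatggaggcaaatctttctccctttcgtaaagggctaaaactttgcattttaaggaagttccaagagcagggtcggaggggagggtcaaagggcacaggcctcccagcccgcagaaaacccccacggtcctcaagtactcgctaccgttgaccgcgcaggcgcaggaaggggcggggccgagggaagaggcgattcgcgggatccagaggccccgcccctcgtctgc
CDC6, chr17:40287629-40287878, plus strand: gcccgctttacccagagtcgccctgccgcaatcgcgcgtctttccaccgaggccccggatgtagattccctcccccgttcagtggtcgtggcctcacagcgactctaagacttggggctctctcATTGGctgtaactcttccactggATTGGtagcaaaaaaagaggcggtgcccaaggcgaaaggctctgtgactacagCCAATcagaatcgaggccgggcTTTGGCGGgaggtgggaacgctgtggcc
MCM6, chr2:135876444-135876693, minus strand: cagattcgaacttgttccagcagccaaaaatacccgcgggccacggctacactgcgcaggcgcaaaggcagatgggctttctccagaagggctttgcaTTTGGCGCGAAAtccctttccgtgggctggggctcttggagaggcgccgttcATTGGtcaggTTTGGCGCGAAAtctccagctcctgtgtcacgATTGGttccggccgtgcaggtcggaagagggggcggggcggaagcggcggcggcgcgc

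RRM2 showed 3 CCAAT pentamers and no octamer in the window, and GMNN showed neither. With positions counted from the start, negative before it, the GINS2 octamer spanned -31 to -24 on the strand opposite the gene, and the CDC6 octamer -28 to -21 on the gene's strand. MCM6 carried 4 octamers as 2 overlapping pairs on opposite strands, at -152 to -141 and at -90 to -79. CDC6 held a further octamer at bases 8 to 15 after the start, and GINS1 its only octamer at bases 6 to 13, outside the stretches printed. The median log2 change with radiation alone at 24 h was -0.74 over the 19 genes with an octamer and -0.63 over the 16 without. GINS2 and TYMS, the latter without a called change, each had 1 octamer. These matches describe letters in the window and were not tested for binding.

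Radiation alone lowered nearly the whole machinery at 24 h. Of 41 genes, 38 fell and 0 rose at an adjusted p under 0.05 (limma), against 11% of all genes tested that fell and 10% that rose. The median log2 change was -0.70 over the 41 genes and 0.03 over all genes. RRM2 had the largest decrease, and only DBF4, LIG1 and TYMS did not pass. Leaving out each of the 6 arrays in turn kept 34 of the 38 calls throughout. The call of CDT1 was lost without untreated replicate 2 or 3 or radiation replicate 1 or 3 (adjusted p up to 0.158), that of GINS4 without untreated replicate 1 or radiation replicate 1 or 2 (up to 0.222), that of PRIM2 without untreated or radiation replicate 1 (up to 0.112), and that of RPA3 without radiation replicate 2 (0.081). Of the markers of other cell types, 1 of 7 fibroblast and endothelial genes rose and 0 of 5 leukocyte genes were called in this comparison, and their part in the result was not tested. In bulk RNA, a smaller share of replicating cells and less RNA per cell cannot be told apart.

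**Figure D1:**
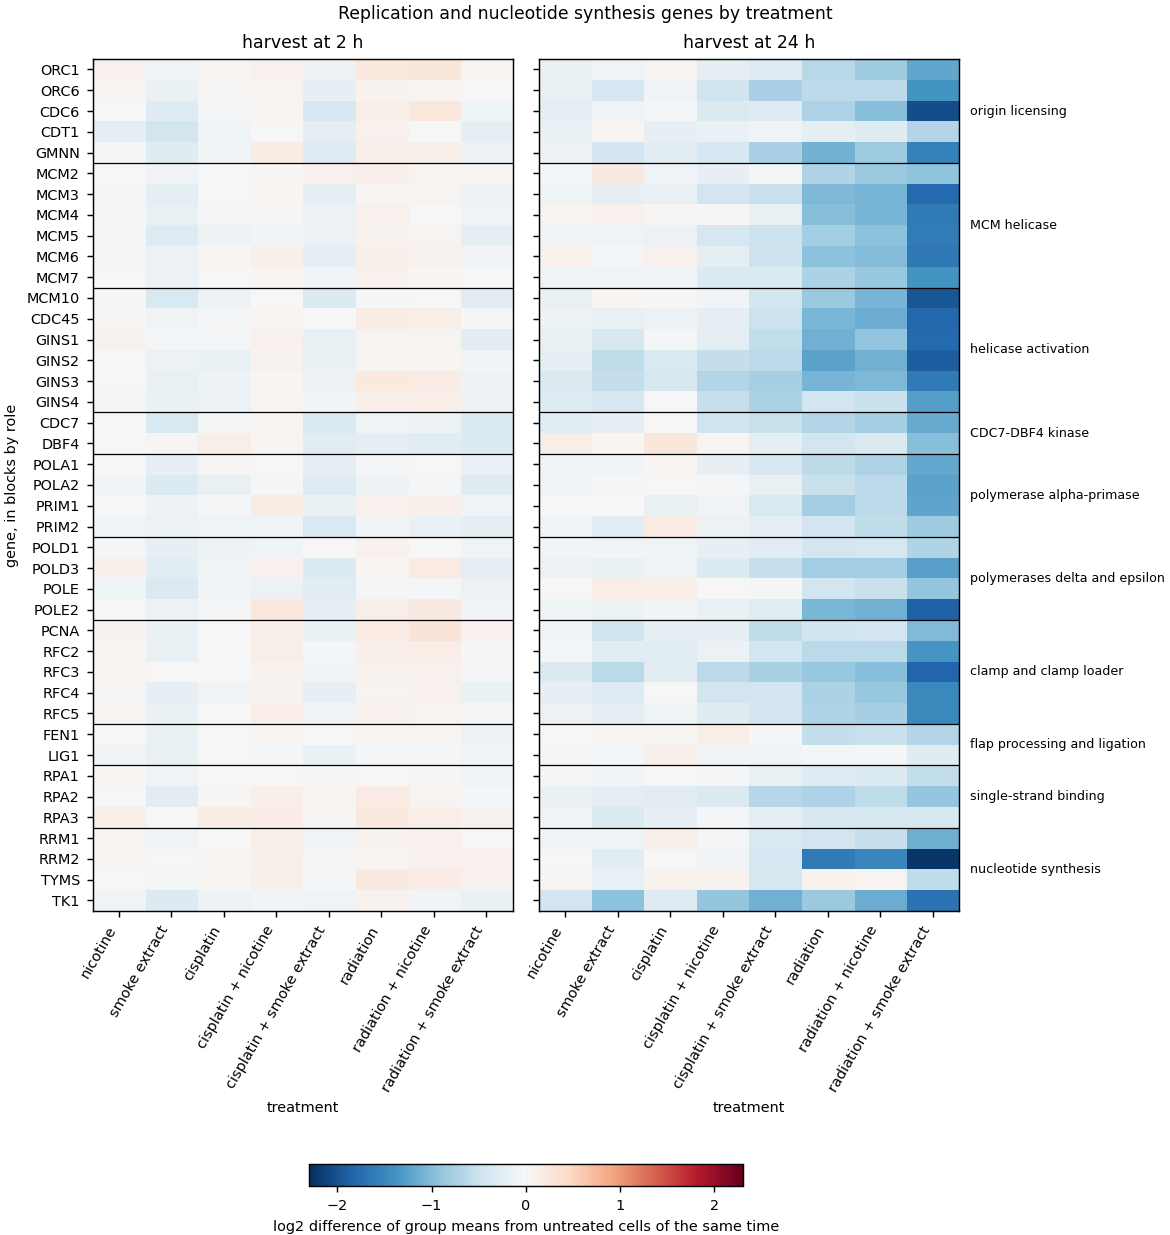
Heat map of the 41 genes (rows, in blocks by role) in each treatment (columns), as the log2 difference between the mean of 3 arrays and that of untreated cells of the same harvest time, with blue for lower and red for higher. The 2 h panel is pale throughout, and at 24 h the radiation columns are blue in nearly every row, darkest for radiation after smoke extract.

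Among the 5 origin licensing genes, all fell with radiation alone, by a median of 0.63 on the log2 scale. GMNN, geminin, which binds CDT1 and blocks relicensing in S and G2, read 7.31, 7.14 and 7.11 on the untreated arrays and 5.88, 6.08 and 6.37 on the irradiated arrays. The groups did not overlap, and GMNN fell by 1.08 on the log2 scale (SE 0.149, adjusted p = 2.57e-07). Its target CDT1, which loads the MCM ring, read 7.98, 8.09 and 8.05 untreated and 7.82, 7.91 and 7.73 irradiated. The groups were close without overlapping, and CDT1 fell by only 0.22 (SE 0.0792, adjusted p = 0.0401). CDC6, the loading ATPase, fell by 0.71 (SE 0.0975), and the origin recognition subunits ORC1 and ORC6 fell by 0.63 (SE 0.0976) and 0.61 (SE 0.130).

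The 6 subunits of the MCM helicase fell in a narrow band, from 0.70 to 1.04 on the log2 scale. MCM3 read 9.20, 9.04 and 9.23 untreated and 8.18, 8.03 and 8.16 irradiated. The irradiated arrays were all lower, a 2.05-fold decrease (SE 0.0867 in log2, adjusted p = 7.53e-13). MCM2, the subunit with the smallest change, read 8.72, 8.66 and 8.77 untreated and 8.14, 7.96 and 7.96 irradiated. These groups were also apart, a decrease of 0.70 (SE 0.0794, adjusted p = 3.95e-09). MCM4, MCM6, MCM5 and MCM7 fell by 0.98, 0.94, 0.78 and 0.73 (SEs 0.0971, 0.120, 0.0934 and 0.0652).

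Helicase activation genes had the largest median decrease of the 10 roles with radiation alone, 1.06 on the log2 scale, and 6 of 6 fell. GINS2, a subunit of the GINS complex that joins CDC45 and the MCM ring, read 9.07, 8.69 and 8.85 untreated and 7.66, 7.58 and 7.69 irradiated. The 3 irradiated arrays lay well below the untreated ones, a decrease of 1.23 (SE 0.118, adjusted p = 4.42e-11). GINS1, GINS3 and CDC45 fell by 1.10 (SE 0.138), 1.06 (SE 0.0983) and 1.06 (SE 0.0936), and MCM10, a scaffold for helicase firing, by 0.85 (SE 0.0987). GINS4, the remaining GINS subunit, read 7.31, 7.08 and 7.13 untreated and 6.72, 6.50 and 7.04 irradiated. The groups did not overlap, the lowest untreated and highest irradiated arrays being close, and GINS4 fell by 0.42 (SE 0.139, adjusted p = 0.0239). Of the kinase that triggers the helicase, the catalytic subunit CDC7 read 7.52, 7.38 and 7.55 untreated and 6.67, 6.78 and 7.00 irradiated. CDC7 was lower on every irradiated array, by 0.67 (SE 0.151, adjusted p = 0.000748). Its activator DBF4 read 5.00, 4.85 and 4.44 untreated and 4.33, 4.26 and 4.38 irradiated. These values lie at or near the level of the olfactory receptor background, the untreated arrays spread widely, and DBF4 did not pass (adjusted p = 0.146).

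All 8 polymerase genes fell, with a median of 0.55 for polymerase alpha-primase and 0.62 for polymerases delta and epsilon. PRIM1, the catalytic primase subunit, read 8.83, 8.62 and 8.74 untreated and 8.14, 7.62 and 8.05 irradiated. The groups did not overlap, although radiation replicate 2 was lower than the other two, and the decrease was 0.79 (SE 0.126, adjusted p = 4.39e-06). PRIM2, the large primase subunit, read 7.72, 7.48 and 7.52 untreated and 6.95, 7.22 and 7.26 irradiated. It fell by 0.43 (SE 0.130, adjusted p = 0.0117), without overlap. The polymerase alpha subunits POLA1 and POLA2 fell by 0.60 (SE 0.0991) and 0.50 (SE 0.0919). POLE2, an accessory subunit of polymerase epsilon, read 8.43, 8.28 and 8.19 untreated and 7.27, 7.14 and 7.36 irradiated. The gap between the groups was wide, a decrease of 1.04 (SE 0.127, adjusted p = 1.88e-08). POLD1, the catalytic subunit of polymerase delta, read 7.72, 7.80 and 7.84 untreated and 7.37, 7.44 and 7.29 irradiated. It was lower on every irradiated array, by 0.42 (SE 0.0857, adjusted p = 0.000206). POLE, the catalytic subunit of polymerase epsilon, fell by 0.43 (SE 0.0769) and POLD3, a polymerase delta accessory subunit, by 0.80 (SE 0.137).

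The clamp and its loader fell together, 5 of 5 with a median of 0.72. RFC3, a small subunit of the loader, read 9.37, 9.35 and 9.39 untreated and 8.30, 8.38 and 8.80 irradiated. The untreated arrays agreed closely and the irradiated ones were lower and more spread, a decrease of 0.87 (SE 0.129, adjusted p = 1.06e-06). PCNA, the clamp, read 9.39, 9.18 and 9.26 untreated and 8.78, 8.76 and 8.90 irradiated. It fell least of the role, by 0.46 (SE 0.109, adjusted p = 0.00124), without overlap. RFC4, RFC5 and RFC2 fell by 0.74, 0.72 and 0.63 (SEs 0.0940, 0.0840 and 0.0838).

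Okazaki fragment maturation split. FEN1, the flap nuclease, read 8.23, 8.16 and 8.15 untreated and 7.66, 7.75 and 7.49 irradiated. All irradiated arrays were lower and FEN1 fell by 0.55 (SE 0.112, adjusted p = 0.000211). LIG1, the ligase that seals the fragments, read 7.96, 7.91 and 7.85 untreated and 7.90, 7.90 and 7.82 irradiated. The groups overlapped, and the change was -0.03 with a 95% interval from -0.18 to 0.11 (adjusted p = 0.826). Its sign turned under quantile normalization. Of the single-strand binding protein RPA, RPA2 read 6.71, 6.65 and 6.77 untreated and 6.06, 5.74 and 6.20 irradiated. These did not overlap, a decrease of 0.70 (SE 0.128, adjusted p = 4.14e-05). RPA1, the large subunit, read 8.61, 8.52 and 8.61 untreated and 8.21, 8.32 and 8.31 irradiated. The difference was small with little spread, a decrease of 0.30 (SE 0.0573, adjusted p = 9.14e-05), and RPA3, the small subunit, fell by 0.37 (SE 0.101).

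Nucleotide synthesis held both the largest decrease and the only positive estimate. RRM2, the small subunit that sets ribonucleotide reductase activity in S phase, read 9.67, 9.56 and 9.40 untreated and 8.02, 7.74 and 7.97 irradiated. The lowest untreated array stood well above the highest irradiated array, a 3.11-fold decrease (-1.64 in log2, SE 0.105, adjusted p = 2.05e-16). Its partner RRM1, the large subunit, fell by 0.41 (SE 0.0803). TYMS, thymidylate synthase, read 9.89, 9.81 and 9.84 untreated and 9.90, 9.86 and 10.02 irradiated. The irradiated arrays overlapped the untreated ones, and the change of 0.08 had a 95% interval from -0.06 to 0.22 (adjusted p = 0.502). TK1, thymidine kinase of the salvage pathway, fell by 0.86 (SE 0.151).

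Radiation after nicotine also lowered most of the genes. Against nicotine alone at 24 h, 36 of 41 genes fell and 0 rose, against 6.66% of all genes that fell, with a median of -0.63 over the 41 genes. RRM2 again led, falling by 1.50 (SE 0.105), followed by MCM4 at 1.13 (SE 0.0971) and MCM6 at 1.09 (SE 0.120). CDT1 (-0.13), GINS4 (-0.21), DBF4, LIG1 (-0.08) and TYMS (0.04) did not pass. Of the 36 calls, 30 held on leaving out each array in turn, and those of ORC6, CDC7, PRIM2, PCNA, RPA2 and RPA3 did not. Each of these was lost without nicotine replicate 1 (adjusted p up to 0.161, for ORC6), and all but PCNA also without at least 1 of nicotine replicate 3 and radiation plus nicotine replicates 1, 2 and 3.

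Radiation after smoke extract gave larger decreases. Against smoke extract alone at 24 h, 40 of 41 genes fell and 0 rose, against 9.96% of all genes that fell, and the median log2 change was -1.10. The 40 include DBF4, whose level was near background. MCM10 read 8.58, 8.59 and 8.67 with smoke extract alone and 6.48, 6.74 and 6.60 with radiation after smoke extract. No arrays overlapped, and MCM10 fell 4.02-fold (-2.01 in log2, SE 0.0987, adjusted p = 3.1e-21). RRM2 read 9.40, 9.51 and 9.00 with smoke extract alone and 7.39, 7.20 and 7.32 after both. It fell by 2.00 (SE 0.105, adjusted p = 3.58e-20), again without overlap. CDC6 fell by 1.96, POLE2 by 1.74, MCM4 by 1.72 and CDC45 by 1.65 (SEs 0.0975, 0.127, 0.0971 and 0.0936). TYMS and LIG1, which had not passed with radiation alone, fell here by 0.41 (SE 0.0700, adjusted p = 1.52e-05) and 0.24 (SE 0.0729, adjusted p = 0.0166). The call of LIG1 was lost without smoke extract replicate 3 or radiation plus smoke extract replicate 3 (adjusted p up to 0.095). RPA3 did not pass (-0.03, adjusted p = 0.907). With radiation alone and in this comparison, 37 genes fell in both. That is the smallest overlap that 38 and 40 calls among the same 41 genes allow, so it adds nothing to the counts. Without the arrays whose olfactory receptor mean stood apart, 39 genes fell, with 1 array left for radiation plus smoke extract, which was then taken to vary like the other groups.

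**Figure D2:**
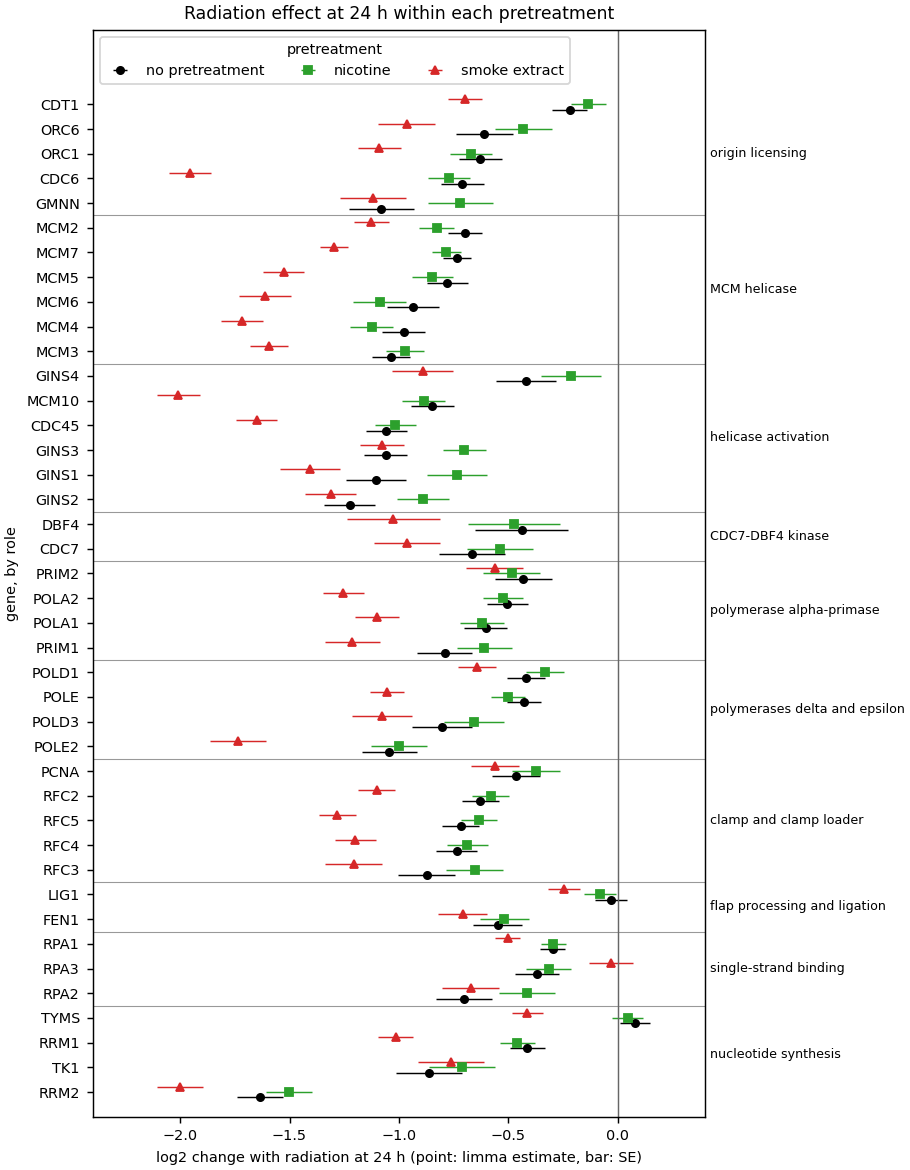
Log2 change with radiation at 24 h for each gene, by role, in cells with no pretreatment (black circles), with nicotine (green squares) and with smoke extract (red triangles); points are limma estimates and bars are SEs, with 3 arrays in each of the groups compared. The red triangles lie farthest left for most genes, with MCM10 and RRM2 near -2, while RPA3 sits at -0.03 in smoke extract cells.

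The interaction term tested whether smoke extract had another effect in irradiated than in unirradiated cells at 24 h. It was negative and called for 19 of 41 genes and positive and called for 0, against 1.84% of all genes called negative. Negative values mean that the smoke extract effect was lower in irradiated cells. That covers genes without a fall in unirradiated cells, such as MCM2, whose effects of 0.21 without radiation and -0.22 with it did not pass. Every subunit of the MCM helicase was among them, 6 of 6, along with 2 of 5 licensing genes, 2 of 6 helicase activation genes, 4 of 8 polymerase genes, 3 of 5 clamp and loader genes and 2 of 4 nucleotide synthesis genes. None of the CDC7-DBF4, flap and ligation or RPA genes was called. Of the 19 calls, 12 held on leaving out each of the 12 arrays in turn (CDC6, MCM3, MCM4, MCM5, MCM7, MCM10, CDC45, POLA2, POLE, RFC5, RRM1 and TYMS). The call of CDT1 was lost without radiation replicate 2 (adjusted p = 0.0563), and that of RFC2 without untreated replicate 2, smoke extract replicate 2 or radiation replicate 1 (up to 0.0772). Those of MCM6 and POLE2 were lost without untreated replicate 2 or 3, smoke extract replicate 1 or 2, radiation replicate 1 or the combination's replicate 2 (up to 0.0585 and 0.0751). MCM2 lost its call without untreated replicate 1 or 2, smoke extract replicate 1 or 3, radiation replicate 1 or the combination's replicate 3 (up to 0.125). POLA1 kept its call only without smoke extract replicate 2, radiation replicate 3 or the combination's replicate 3 (up to 0.112 otherwise), and RFC4 only without untreated replicate 1, radiation replicate 2 or 3 or the combination's replicate 3 (up to 0.212 otherwise). With no groups but these 4 in the model, 9 genes were called, and without the arrays standing apart 13.

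CDC6 had the largest term. It read 9.62, 9.48 and 9.58 untreated, 9.57, 9.40 and 9.47 with smoke extract, 8.87, 8.94 and 8.73 with radiation and 7.54, 7.36 and 7.68 with both. Smoke extract arrays overlapped untreated ones, and the combination lay far below radiation alone. The smoke extract effect was -0.08 without radiation (adjusted p = 0.716) and -1.32 in irradiated cells, an interaction of -1.24 (SE 0.138, adjusted p = 2.43e-08). MCM10 read 8.56, 8.51 and 8.63 untreated and 7.84, 7.74 and 7.59 with radiation, beside its smoke extract values above. Its smoke extract effect was 0.05 without radiation (adjusted p = 0.853) and -1.11 with it, an interaction of -1.16 (SE 0.140, adjusted p = 1.77e-07). POLA2, MCM5 and MCM4 followed with terms of -0.75, -0.75 and -0.74 (SEs 0.130, 0.132 and 0.137). TYMS behaved likewise at smaller size. It read 9.66, 9.82 and 9.57 with smoke extract and 9.19, 9.28 and 9.34 with both, the latter below every array of the other 3 groups, and its term was -0.49 (SE 0.0990, adjusted p = 0.00199).

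For other genes the smoke extract effects in the 2 settings were close. TK1 read 9.00, 8.57 and 8.40 with smoke extract against 9.55, 9.65 and 9.60 untreated, and 7.93, 7.86 and 7.91 with both against 8.59, 8.67 and 8.96 with radiation. Smoke extract arrays were lower in either pair, by 0.94 and 0.84 (SE 0.151 for each), and the interaction of 0.10 had a 95% interval from -0.33 to 0.53. GINS2, GINS3 and GMNN had terms of -0.09 (interval -0.42 to 0.25), -0.02 (-0.30 to 0.26) and -0.04 (-0.46 to 0.39). Intervals of this width do not show equal effects.

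**Figure D3:**
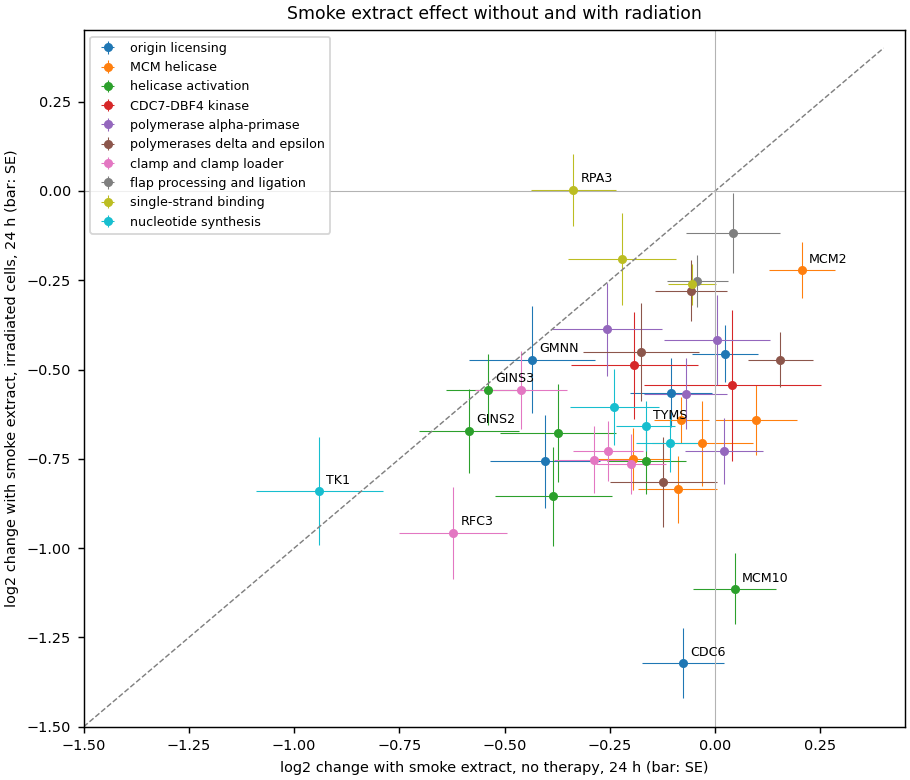
Log2 change with smoke extract at 24 h in unirradiated cells (x axis) and in irradiated cells (y axis) for the 41 genes, coloured by role, with SE bars and a dashed line of equal change. CDC6 and MCM10 lie near 0 on the x axis and below -1 on the y axis, while TK1, GINS2, GINS3 and GMNN lie close to the line.

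**Figure D4:**
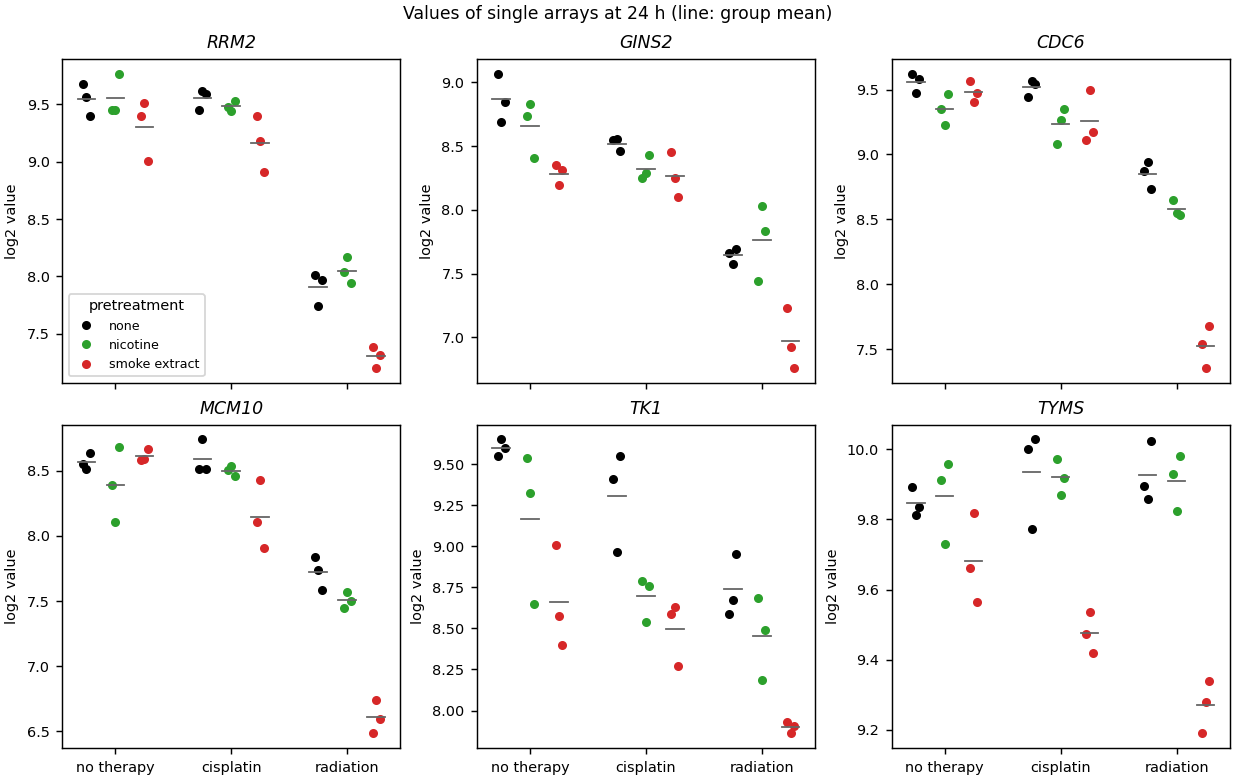
Log2 values of single arrays at 24 h for 6 genes under no therapy, cisplatin or radiation, with no pretreatment (black), nicotine (green) or smoke extract (red); short lines are group means of 3 arrays. RRM2 and GINS2 drop with radiation in every pretreatment, CDC6 and MCM10 drop farthest where smoke extract preceded radiation, and TYMS is lowest in that group.

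Within irradiated cells at 24 h, adding smoke extract lowered 35 of 41 genes and raised 0, against 5.68% of all genes that fell, with a median of -0.64. All 6 helicase activation genes, all 5 licensing genes, all 5 clamp and loader genes and all 4 nucleotide synthesis genes passed. MCM2 (-0.22), DBF4, PRIM2 (-0.39), FEN1 (-0.12), RPA2 (-0.19) and RPA3 (0.00) did not. Leaving out each array in turn kept 29 of the 35 calls, and those of GMNN, CDC7, PRIM1, POLD1, POLD3 and LIG1 were lost without at least 1 array of radiation replicates 1, 2 or 3 or of radiation plus smoke extract replicates 1, 2 or 3 (adjusted p up to 0.267, for GMNN without radiation replicate 3). The group mean of the olfactory receptor gauge was 4.69 in both groups.

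Smoke extract alone lowered 10 of 41 genes at 24 h and raised 0, against 7.4% of all genes that fell. The median was -0.16 over the 41 genes and 0.01 over all genes. TK1, described above, had the largest decrease (adjusted p = 1.04e-05). RFC3 read 8.77, 8.80 and 8.67 with smoke extract, below all untreated arrays given above, a decrease of 0.62 (SE 0.129, adjusted p = 0.000526). GINS2 read 8.35, 8.19 and 8.31 and GINS3 7.71, 7.90 and 7.66, the latter against 8.30, 8.25 and 8.35 untreated. Neither gene overlapped its untreated arrays, and they fell by 0.58 (SE 0.118, adjusted p = 0.000367) and 0.54 (SE 0.0983, adjusted p = 9e-05). PCNA read 8.89, 9.09 and 8.46 and GMNN 6.74, 7.05 and 6.47. Replicate 3 was the lowest for both, neither overlapped its untreated arrays, and they fell by 0.46 (SE 0.109, adjusted p = 0.00234) and 0.43 (SE 0.149, adjusted p = 0.0378). ORC6, RPA3, RFC4 and RFC2 fell by 0.40, 0.34, 0.29 and 0.25. Of the MCM helicase, 0 of 6 subunits passed, with changes from -0.19 to 0.21. Only GINS2, GINS3, RFC3 and TK1 kept their call on leaving out each array in turn. The count was 5 without untreated replicate 1 or smoke extract replicate 1 and 4 without smoke extract replicate 3, and it was 16 with the olfactory receptor mean as a covariate. Of the 10 genes, 9 (90%) also fell with smoke extract in irradiated cells, on separate arrays. There 35 of all 41 genes (85.4%) fell, so 90% is near the share of the whole group.

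At 2 h no gene of the machinery passed with radiation. Radiation alone called 0 of 41 genes, against 0.304% of all genes in either direction. Under an unadjusted p of 0.05 were 4 of the 41, against 1040 of all 18417 genes. The 4 were ORC1, GINS3, RPA3 and TYMS, with changes from 0.20 to 0.23. The median log2 change was 0.09. Radiation after nicotine and after smoke extract called 0 of 41 genes each, against 0.228% and 0.157% of all genes. Under an unadjusted p of 0.05 were 3 and 4 of the 41, against 573 and 416 of all 18417 genes. The test of the difference itself, the radiation effect at 24 h minus that at 2 h, was negative and called for 34 of 41 genes, against 6.94% of all genes. RRM2 (-1.68, SE 0.149), GINS3 (-1.29, SE 0.139) and GINS2 (-1.28, SE 0.166) had the largest differences. Of the 34 calls, all but that of POLA2 held on leaving out each array in turn (adjusted p for POLA2 up to 0.119). It was lost without untreated or radiation replicate 1 or 3 at 2 h, untreated replicate 1 or 3 at 24 h, or radiation replicate 2 or 3 at 24 h.

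Smoke extract alone lowered 4 of 41 genes at 2 h, 4 h after it was added, against 2.04% of all genes that fell. CDT1 read 8.19, 8.31 and 8.26 untreated and 7.77, 7.82 and 7.92 with smoke extract. The groups were apart, a decrease of 0.41 (SE 0.0792, adjusted p = 0.000358). MCM10 read 8.74, 8.87 and 8.77 and 8.37, 8.42 and 8.54, and POLE read 9.05, 9.07 and 8.99 and 8.77, 8.54 and 8.80. Smoke extract arrays were the lower ones for either gene, by 0.35 (SE 0.0987, adjusted p = 0.0305) and 0.33 (SE 0.0769, adjusted p = 0.0047). POLA2 read 8.49, 8.57 and 8.49 and 8.22, 8.06 and 8.35, also without overlap, and fell by 0.31 (SE 0.0919, adjusted p = 0.0445). None of these 4 was among the 10 called at 24 h. Those 10 are 24.4% of the 41 genes, so an overlap of 0 among 4 does not show separate sets. The difference between the times was called for CDT1 and POLE but not for MCM10 (adjusted p = 0.0804) or POLA2 (adjusted p = 0.123). Of the 4 calls at 2 h, only that of CDT1 held on leaving out each array in turn. The count at 2 h was 2 without untreated replicate 1, 2 or 3 or smoke extract replicate 1, and 1 without smoke extract replicate 2. With no other groups in the model it was 11. In irradiated cells smoke extract lowered 2 genes at 2 h, CDT1 (-0.29, adjusted p = 0.0262) and GINS3 (-0.34, adjusted p = 0.0491), against 0.907% of all genes. This count was 0 without radiation replicate 1 or 2 or radiation plus smoke extract replicate 2 or 3, and 1 without radiation replicate 3. In cisplatin cells it lowered 1, CDC6 (-0.34, adjusted p = 0.0232), against 1.87%, and that call was lost without cisplatin replicate 1 or 3 or cisplatin plus smoke extract replicate 3 (adjusted p up to 0.264).

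The smoke extract effect differed between the times for 3 genes, 7.32% of the 41, near the 6.29% of all genes called in either direction. RFC3 was called lower at 24 h than at 2 h, with a difference of -0.64 (SE 0.182, adjusted p = 0.0268), against 1.64% of all genes lower. POLE (0.48, SE 0.109, adjusted p = 0.0049) and CDT1 (0.44, SE 0.112, adjusted p = 0.0141) were called higher, against 4.65%, with effects at 24 h of 0.15 and 0.02. The call of RFC3 was lost without untreated replicate 1 or 3 or smoke extract replicate 2 or 3 at 2 h, and without untreated replicate 1 or smoke extract replicate 1 or 3 at 24 h (adjusted p up to 0.0729).

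Cisplatin at 1 uM called few of the 41 genes. At 2 h, given alone, it called 0 of 41, against 0.00543% of all genes. Under an unadjusted p of 0.05 were 0 of the 41, against 418 of all 18417 genes. At 24 h it lowered 1, GINS3, against 1.65% of all genes that fell, with a median of -0.05 over the 41. Under an unadjusted p of 0.05 were 5 of the 41, against 3556 of all 18417 genes. GINS3 read 8.04, 7.66 and 8.10 with cisplatin, replicate 2 being the lowest, a decrease of 0.37 (SE 0.0983, adjusted p = 0.0256). That call was lost without any of the untreated replicates 1, 2 and 3 or without cisplatin replicate 2 (adjusted p up to 0.192). Cisplatin after nicotine called 0 of 41 genes, against 0.451% of all genes, but 4 without nicotine replicate 3. Here 10 of the 41 were under an unadjusted p of 0.05, against 2715 of all 18417 genes. Cisplatin after smoke extract, against smoke extract alone, lowered 1, MCM10 (-0.47, SE 0.0987, adjusted p = 0.029), against 0.076%. In that comparison 39 of 41 estimates were negative, with a median of -0.22 over the 41 genes and 0.01 over all genes. Of the 41, 26 were under an unadjusted p of 0.05, against 2403 of all 18417 genes. The call of MCM10 was lost without smoke extract replicate 1, 2 or 3 or cisplatin plus smoke extract replicate 1 or 3. The count was 3 without cisplatin plus smoke extract replicate 2 and 2 without smoke extract replicate 3. Set directly against cisplatin at 24 h, radiation gave lower values for 36 of 41 genes, against 7.91% of all genes, led by RRM2 at -1.64 (SE 0.105) and GINS1 at -1.05 (SE 0.138). CDT1, PCNA, LIG1, RPA3 and TYMS did not pass in that comparison, with differences from -0.26 to -0.01. The 36 include DBF4, whose level was near background. The group mean of the olfactory receptor gauge was 4.69 with radiation and 4.54 with cisplatin.

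In cisplatin cells at 24 h, smoke extract lowered 27 of 41 genes against 14.1% of all genes, and nicotine lowered 11 against 9.56%. TK1 had the largest decrease in either comparison. It read 9.41, 8.96 and 9.55 with cisplatin, 8.79, 8.54 and 8.76 after nicotine and 8.59, 8.63 and 8.27 after smoke extract. The cisplatin arrays were the highest and the most spread, with decreases of 0.61 (SE 0.151, adjusted p = 0.00999) and 0.81 (SE 0.151, adjusted p = 0.000103). GINS4, ORC6 and MCM6 fell by 0.71, 0.68 and 0.56 with smoke extract. The background gauge moved with these groups: the olfactory receptor mean was 4.54 with cisplatin, 4.75 with cisplatin after nicotine and 4.78 with cisplatin after smoke extract. Some cell type markers were called as well. With smoke extract 3 of 7 fibroblast and endothelial markers rose (list median 0.25). In that comparison 1 of 5 leukocyte markers rose, and of 6 epithelial markers 1 fell and 1 rose, where 14.6% of all genes rose. With nicotine 1 of 5 leukocyte and 1 of 6 epithelial markers rose, where 8.25% of all genes rose. The fibroblast and endothelial list had 0 called with nicotine, with a median of 0.24. So few markers cannot be told from these shares by single calls. The part of these markers in the result was not tested. With the olfactory receptor mean as a covariate, the counts were 8 for smoke extract and 0 for nicotine. The smoke extract count was 14 without cisplatin replicate 3. The nicotine count was 0 without that array, 3 without cisplatin replicate 1, and 2, 3 and 5 without cisplatin plus nicotine replicates 1, 2 and 3. The interaction of smoke extract and cisplatin called 0 of 41 genes, against 0.152% of all genes, but 3 without cisplatin plus smoke extract replicate 2. Under an unadjusted p of 0.05 were 9 of the 41, against 4137 of all 18417 genes.

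Nicotine without cisplatin left no called gene among the 41 in the comparisons made. Its effect in irradiated cells at 2 h was not tested. It called 0 at 2 h (1 under an unadjusted p of 0.05), against 0% of all genes, 0 at 24 h (5 unadjusted), against 0.00543%, and 0 in irradiated cells at 24 h (4 unadjusted), against 0.00543%. The interaction of nicotine and radiation called 0 (2 unadjusted), against 0% of all genes. Of all 18417 genes, 109, 1074, 1035 and 798 were under an unadjusted p of 0.05 in these comparisons, in the same order. TK1 was widely spread under nicotine at 24 h, with 9.54, 9.32 and 8.65. Replicate 3 was far below the other two, and the change of -0.43 (SE 0.151) did not pass.

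Untreated cells also had lower levels at 24 h than at 2 h. Of 41 genes, 7 fell, against 1.04% of all genes, and 40 estimates were negative with a median of -0.28. PRIM2 read 8.04, 8.12 and 7.99 at 2 h, above its 24 h values, and fell by 0.47 (SE 0.130, adjusted p = 0.0419). PCNA read 9.73, 9.74 and 9.65 and TYMS 10.21, 10.26 and 10.15 at 2 h. Their 24 h arrays were all lower, by 0.43 (SE 0.109, adjusted p = 0.0237) and 0.36 (SE 0.0700, adjusted p = 0.00184). MCM5, read at 9.02, 9.09 and 9.05 at 2 h and 8.66, 8.70 and 8.67 at 24 h, fell by 0.38 (SE 0.0934, adjusted p = 0.0203). MCM2, MCM7 and RRM1 fell by 0.34, 0.28 and 0.32. Only the call of TYMS held without each array in turn. The count was 4, 2 and 1 without untreated 2 h replicates 1, 2 and 3 and 1 and 2 without untreated 24 h replicates 2 and 3, whereas it was 34 with only these 2 groups in the fit and 15 without the arrays standing apart.

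The median over the 41 genes on each array, as a difference from the untreated mean of the same time, put some but not all of the conditions in order. At 24 h the untreated arrays lay between -0.05 and 0.04, smoke extract between -0.23 and -0.12, radiation between -0.74 and -0.64, radiation after nicotine between -0.79 and -0.72, and radiation after smoke extract between -1.40 and -1.19. Nicotine (-0.24 to 0.01) and cisplatin (-0.08 to 0.02) overlapped the untreated arrays, and radiation overlapped radiation after nicotine. Nicotine also overlapped smoke extract and cisplatin after nicotine. Cisplatin after nicotine (-0.24 to -0.20) overlapped smoke extract, and cisplatin after smoke extract lay between -0.49 and -0.31. At 2 h all arrays lay between -0.31 and 0.14. Smoke extract (-0.21 to -0.09) lay below the untreated arrays (-0.03 to 0.06) and below radiation (0.00 to 0.14), which overlapped the untreated arrays. Nicotine (-0.14 to 0.11) and cisplatin (-0.12 to 0.08) overlapped both the untreated and the smoke extract arrays. Over all 18 groups, 40 of 41 genes had their lowest mean with radiation after smoke extract at 24 h. The exception was RPA3, lowest with radiation after nicotine at 24 h. The 40 include DBF4, whose level was near background. The same count was not made over all genes, so how particular it is to the 41 was not tested.

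**Figure D5:**
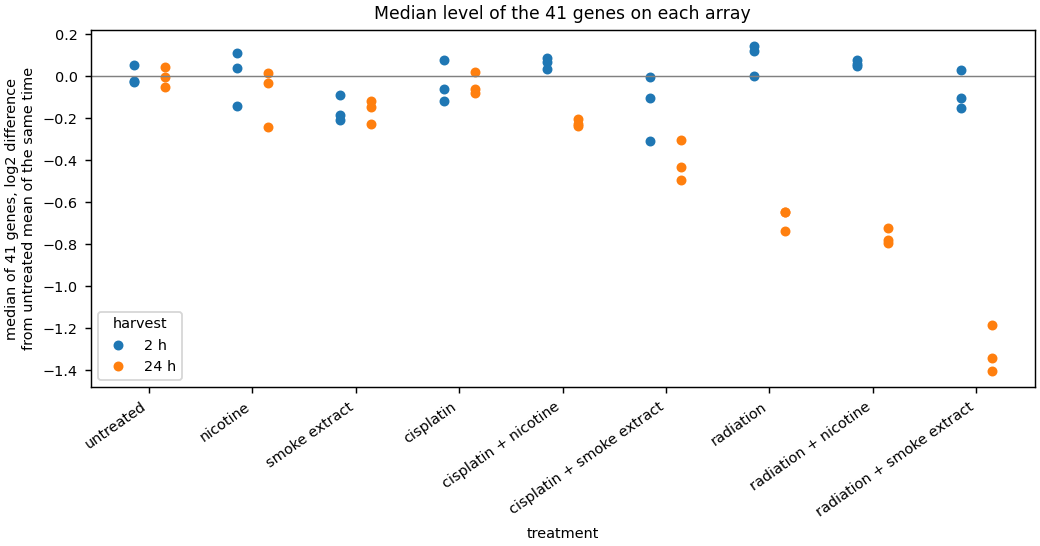
Median over the 41 genes on each of the 54 arrays (points, 3 per group and time), as the log2 difference from the mean of untreated cells at 2 h (blue) or 24 h (orange). The 2 h points stay between -0.31 and 0.14, and the lowest 24 h points, from -1.40 to -1.19, belong to radiation after smoke extract.

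Genes outside the 41 were read from lists of the same pathway. Of 29 other replication genes, 14 fell and 1 rose with radiation alone at 24 h, with a median of -0.27, where 11% of all genes fell and 10% rose. CLSPN, claspin, which carries the checkpoint signal at forks, read 7.70, 7.68 and 7.78 untreated and 6.78, 6.12 and 6.13 irradiated. The irradiated arrays were all lower, replicate 1 the least, and CLSPN fell by 1.38 (SE 0.192, adjusted p = 3.18e-07). DNA2, TIPIN and TICRR fell by 0.97, 0.98 and 0.76, and TICRR, which brings CDC45 to origins, had already fallen at 2 h, by 0.62 (SE 0.0891, adjusted p = 1.39e-05). After smoke extract, radiation lowered 20 of the 29, where 9.96% of all genes fell. Of 18 measured nucleotide synthesis genes outside the 41, 11 fell and 2 rose with radiation alone, read against the same 11% and 10%. RRM2B, the alternative small subunit of ribonucleotide reductase that is induced by DNA damage, read 7.79, 7.60 and 7.76 untreated and 8.22, 8.24 and 8.72 irradiated. It moved against RRM2 and rose by 0.68 (SE 0.167, adjusted p = 0.002), and by 0.86 in smoke extract cells (SE 0.167, adjusted p = 0.00014). The salvage kinase DCK fell by 0.69 with radiation alone and by 0.64 with smoke extract alone.

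Among 29 measured G1/S regulators, 13 fell and 6 rose with radiation alone at 24 h, against 11% and 10% of all genes. CCNE2, cyclin E2, read 8.16, 7.98 and 7.89 untreated and 6.10, 5.76 and 6.44 irradiated. All irradiated arrays were far lower. It fell by 1.91 (SE 0.187, adjusted p = 8.03e-11), whereas its paralogue CCNE1 did not pass (-0.20, adjusted p = 0.17). CCNA2, CDK2, E2F8 and CDC25A fell by 1.14, 1.06, 1.01 and 0.74 (SEs 0.0829, 0.0960, 0.0984 and 0.0975). The cyclin-dependent kinase inhibitor CDKN1A read 8.35, 8.48 and 8.61 untreated and 8.93, 8.97 and 9.84 irradiated. Replicate 3 was the highest, and CDKN1A rose by 0.77 (SE 0.156, adjusted p = 0.000201), after a rise of 1.26 at 2 h (SE 0.156, adjusted p = 5.28e-07), when none of the 41 genes passed. E2F1, an activator of S phase genes, read 8.58, 8.53 and 8.63 untreated, 8.61, 8.49 and 8.59 with smoke extract, 8.42, 8.35 and 8.04 with radiation and 7.57, 7.75 and 7.56 with both. The combination lay below every other array. E2F1 fell by 0.31 with radiation alone and by 0.94 in smoke extract cells, an interaction of -0.63 (SE 0.124, adjusted p = 0.00161). The repressor E2F7 did not pass with radiation (-0.06, adjusted p = 0.69) and rose with smoke extract alone, by 0.53 at 2 h (adjusted p = 2.3e-05) and 0.29 at 24 h (adjusted p = 0.014). E2F8, another repressor, fell with smoke extract at 2 h by 0.66 (SE 0.0984, adjusted p = 3.88e-06). Of 10 measured genes from a list of checkpoint genes and MDM2, 4 fell and 1, MDM2, rose with radiation alone. This is again against 11% and 10% of all genes.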

How the data were processed

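RNA of 54 cultures was hybridised to Affymetrix arrays, 1 array per culture. The values are the authors' deposited normalized values, taken as log2 from their range (0.892 to 13.81, array medians 6.43 to 6.63). No source used here states the base. The submitters' processing notes name Affymetrix Power Tools 1.15.0. Of 33297 rows, 19460 carry 1 gene symbol, 1754 several and 12083 none in the platform annotation. The highest-mean row stood for each of 769 genes with several rows, giving 18417 genes. No intensity filter was applied.

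A model of 18 group means was fitted over all genes and arrays with limma 3.58.1 (R 4.3.3, 36 residual degrees of freedom, moderated variances with a trend on level). A change was called at a Benjamini-Hochberg adjusted p under 0.05 over all 18417 genes, in each of 27 comparisons. All adjusted p-values are from limma and two-sided. The steps were tested on simulated data. Array values are given for the genes with the largest and smallest change of each role with radiation alone at 24 h, for those with the largest called changes in the other main comparisons, and for CDC6, chosen after its values were seen. The 41 genes and the 110 context genes (104 measured) were chosen with earlier results of these data known. Arrays of the same group correlated at 0.979 to 0.996, and the number of arrays limits the precision. Cultures shared 9 six-well plates. No source used here ties a culture to its plate, and a plate effect was therefore not tested. Alternatives were other variance settings, normalization, row choices, covariates and sample subsets.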

Additional observations from a re-analysis of the deposited data

Results flagged for a closer look

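By the interaction term, the smoke extract effect at 24 h differed between irradiated and unirradiated cells for 19 of the 41 genes. These were called with limma at an adjusted p under 0.05, against 2.57% of all genes in either direction. The largest terms were those of CDC6 (-1.24), MCM10 (-1.16), POLA2 (-0.75), MCM5 (-0.75), MCM4 (-0.74) and POLE2 (-0.69).

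The radiation effect differed between 24 h and 2 h for 34 of the 41 genes, against 13% of all genes in either direction. The largest differences were those of RRM2 (-1.68), GINS3 (-1.29), GINS2 (-1.28), CDC45 (-1.23), GMNN (-1.21) and POLE2 (-1.19). The smoke extract effect differed between the times for 3 genes (7.32% of the 41), RFC3 (-0.64), POLE (0.48) and CDT1 (0.44). That share is near the 6.29% of all genes called in either direction.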

How the results depend on the processing

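Of 272 results on single genes, 182 kept their direction and call under every alternative run, and 88 called results lost their call under at least 1, 1 gained a call (DBF4) and 1 changed sign: LIG1 with radiation alone at 24 h was 0.0049 under quantile normalization (adjusted p = 0.975). Of 462 recomputed counts of called genes, 387 were within 1.5 times the reported one. The counts with radiation alone, after nicotine and after smoke extract at 24 h were among those that no full-sample alternative moved farther. The cause of the following shifts was not tested.

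With no other groups in the model than those compared, called genes were 0 for cisplatin alone at 24 h, 0 for cisplatin in smoke extract cells, 3 for nicotine in cisplatin cells, 11 for smoke extract alone at 2 h, 5 and 0 for smoke extract at 2 h in irradiated and cisplatin cells, 15 for smoke extract in cisplatin cells at 24 h, 9 for the interaction of smoke extract and radiation, 10 for the smoke extract effect between times and 34 for untreated cells between times. With the olfactory receptor mean as a covariate they were 5 for cisplatin alone, 0 for cisplatin in smoke extract cells, 0 for nicotine and 8 for smoke extract in cisplatin cells, 16 for smoke extract alone, all at 24 h, 1 for radiation alone at 2 h and 5 for the smoke extract effect between times. With quantile normalization they were 3 for cisplatin alone, 2 for cisplatin in nicotine cells, 4 for nicotine in cisplatin cells and 5 for the smoke extract effect between times. With genes above the median level they were 3, 2 and 5 for cisplatin alone, cisplatin in nicotine cells and the smoke extract effect. With all rows they were 0 for cisplatin in smoke extract cells, 6 for nicotine in cisplatin cells, 2 for smoke extract alone at 2 h and 1 in irradiated cells at 2 h. That last count was also 1 without the variance trend. Without the 6 arrays standing apart, an alternative chosen after seeing the data that leaves lone samples assumed to vary like the other groups, they were 3 for cisplatin alone, 2 and 5 for cisplatin in nicotine and smoke extract cells, 6 for the interaction of smoke extract and cisplatin, 0 for smoke extract in cisplatin cells at 2 h and 15 for untreated cells between times.

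Replicate numbers recur across groups. All 3 same-numbered pairs correlated above 0.1 in 3 of 22 comparisons, all at 24 h. They were smoke extract in irradiated cells (0.325, 0.373 and 0.674), radiation in nicotine cells (0.465, 0.251 and 0.103) and nicotine alone (0.115, 0.382 and 0.262). The mean r of same-numbered arrays over all pairs of groups was 0.0185, so replicates were not taken as pairs. With the replicate number as a block, the count for smoke extract in irradiated cells at 2 h was 1, and no other count moved by over 1.5 times.

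Leaving out 1 array at a time gave ranges at 24 h of 35 to 37 for radiation alone, 30 to 36 after nicotine and 39 to 40 after smoke extract; 4 to 12 for smoke extract alone, 31 to 33 in irradiated and 14 to 30 in cisplatin cells; 0 to 1, 0 to 4 and 0 to 3 for cisplatin alone, after nicotine and after smoke extract; 0 to 12 for nicotine in cisplatin cells; 31 to 37 for radiation against cisplatin; 13 to 19 for the smoke extract and radiation interaction and 0 to 3 for that with cisplatin. At 2 h they were 1 to 5, 0 to 2 and 0 to 1 for smoke extract alone, in irradiated and in cisplatin cells. Between times they were 1 to 6 for untreated cells, 33 to 35 for the radiation effect and 2 to 3 for the smoke extract effect.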
